A study of Homo sapiens with 6 samples.

Results

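Matrix metalloproteinases (MMPs) and ADAMTS proteases are zinc enzymes that cut proteins of the extracellular matrix, and the tissue inhibitors of metalloproteinases (TIMPs) bind and block them. Most MMPs are secreted as inactive proenzymes, while membrane-type MMPs stay anchored at the cell surface, and in breast tumors much of the MMP supply is known to come from stromal cells. ADAMTS proteases carry thrombospondin motifs and include cleaving enzymes of proteoglycans, procollagens and von Willebrand factor. All array probes with an MMP, ADAMTS or TIMP1 to TIMP4 gene name were taken, which gave 59 probes of 46 genes out of 58201 probes with 43317 gene names. They comprised 23 MMP genes and 19 ADAMTS genes, here called the proteases, with 55 probes, and 4 TIMP genes with 4 probes.

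The cells were BT474, an ER-positive, ERBB2-amplified line of luminal breast carcinoma. Control cells carried empty pcDNA3.1, BT474-Var1 cells carried pcDNA3.1 with the long variant 1 of the long noncoding RNA NR2F1-AS1, and BT474-Var4 cells carried it with the short variant 4. All cells were kept in RPMI-1640 with heat-inactivated serum, and the study's methods name different pcDNA3.1 backbones for the variants, each with its own empty control. Transfected cells had passed antibiotic selection, and whether a line was 1 clone, and which empty plasmid the Control arrays represent, is not given in the sources used here. Each group had 2 arrays, labeled A and B, with no statement that they came from separate cultures, so that the p-values measure the spread between these arrays, which may be technical.

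Levels are log2 intensities relative to the 75th percentile of the same array, so that 0 is that percentile, and they are compared between arrays for 1 probe at a time. The scanner software marked a probe as well above background or not on each array, and 47.6% to 57.5% of all probes were so marked per array, the lowest share on the BT474-Var4 B array. The labels held for the transfected RNA, because the 2 probes whose transcripts include variant 1 were well above background on both BT474-Var1 arrays and on neither BT474-Var4 array, and the reverse was so for the probe described as variant 4. A further NR2F1-AS1 probe was above background on all arrays of both variants, at -1.69 and -1.52 in BT474-Var1 and 3.01 and 3.02 in BT474-Var4. Control B was also marked for that probe (-4.16), for 1 of the variant 1 probes (-3.61) and for the variant 4 probe (-4.25). Control A was marked for none. All 9 markers of luminal epithelium (KRT8, KRT18, KRT19, EPCAM, CDH1, ESR1, GATA3, FOXA1 and ERBB2) were above background on all 6 arrays. So were the leukocyte markers PTPRC, CD14, ITGAM and AIF1 and the endothelial markers CDH5 and VWF. The mark alone therefore does not tell cell types apart. All arrays were on 1 slide, where the BT474-Var1 arrays filled a row of their own, so that slide row and BT474-Var1 cannot be told apart. The Control arrays were in columns 1 and 2 and those of both variants in columns 3 and 4. Slide column and the difference of either variant to Control therefore cannot be told apart.

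The first question was which proteases and inhibitors the cells expressed at a measurable level. Of the 46 genes, 16 had a probe above background on all 6 arrays, 15 on some of them and 15 on none. The proteases seen on all arrays were ADAMTS1, ADAMTS7, ADAMTS13, ADAMTS17, ADAMTS19, MMP9, MMP11, MMP15, MMP17, MMP19, MMP23B, MMP24, MMP25 and MMP28, and the inhibitors were TIMP1 and TIMP2. Below background on every array were MMP3, MMP7, MMP8, MMP20, MMP26, MMP27, ADAMTS3, ADAMTS5, ADAMTS8, ADAMTS12, ADAMTS15, ADAMTS16, ADAMTS18, TIMP3 and TIMP4. This set holds the neutrophil collagenase MMP8, the stromelysin MMP3, the matrilysins MMP7 and MMP26, and the aggrecanase ADAMTS5. Bulk RNA cannot tell fewer cells that express a gene from less RNA per cell.

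**Figure D1:**
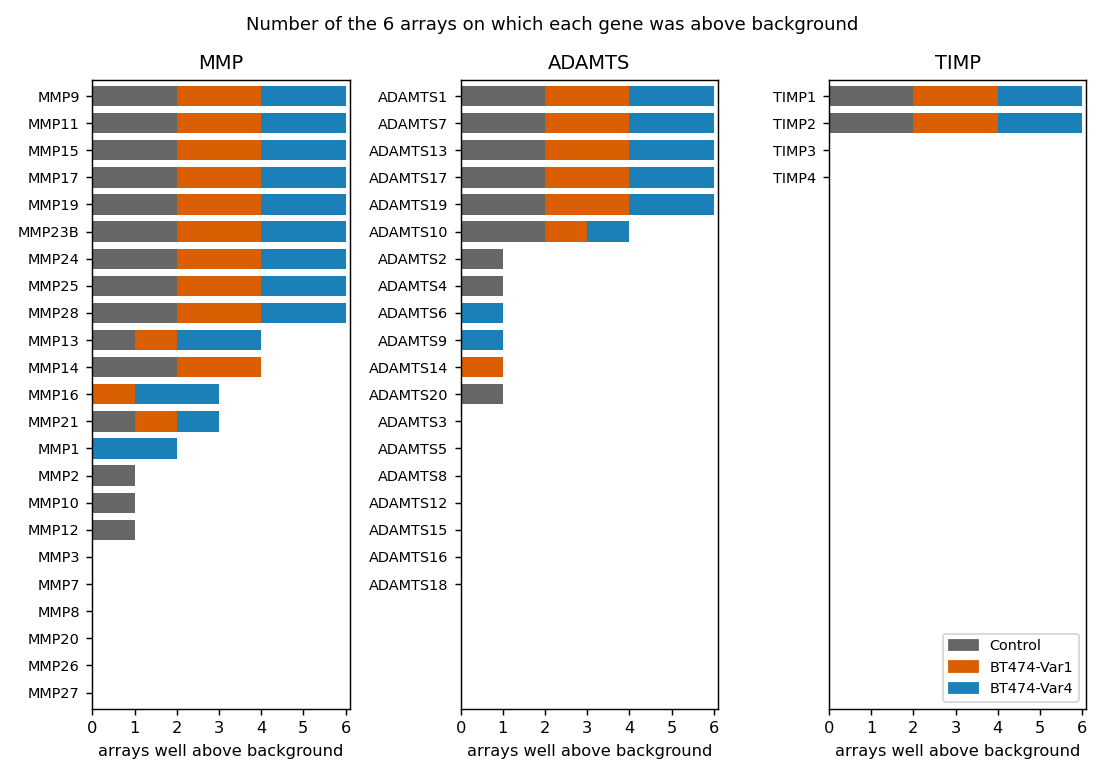
Number of the 6 arrays on which each gene was well above background (horizontal axis, 0 to 6), by its best probe, with the Control, BT474-Var1 and BT474-Var4 arrays stacked in gray, orange and blue. 9 MMP, 5 ADAMTS and 2 TIMP genes reached all 6 arrays, and MMP1 was marked on the 2 BT474-Var4 arrays alone.

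The number of member probes above background per array was 25 and 32 of 59 for Control, 25 and 28 for BT474-Var1, and 29 and 25 for BT474-Var4. The groups therefore overlapped in this count. Of the membrane-type MMPs 5 of 7 probes were above background on all arrays, whereas none of the 4 probes for the procollagen-processing enzymes ADAMTS2, ADAMTS3 and ADAMTS14 was above background on both arrays of a group. Among the proteoglycan-cleaving ADAMTS genes, ADAMTS1 was alone in being above background throughout. ADAMTS4 and ADAMTS20 were marked on the Control B array only, and ADAMTS9, like ADAMTS6 of the other ADAMTS genes, on the BT474-Var4 A array only. MMP2, the gelatinase that TIMP2 helps to activate at the cell surface, was marked on the Control B array and on no other.

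A probe was tested if some group had it above background on both of its arrays, which left 27 of the 59 members (45.8%), 25 of the 55 protease probes and 2 of the 4 TIMP probes, against 54.7% of all probes. The other 32 member probes were not tested, 13 of them above background on some array, and their levels lay between -6.79 and -2.46. Because a probe could enter through the group in which it was high, counts over the tested probes do not describe all members. A probe passed at an adjusted p under 0.05 in limma with Benjamini-Hochberg adjustment over all 31858 tested probes, and it was called if its fold change was also 2 or more. Of the 27 tested probes, 13 probes of 12 genes passed in at least 1 comparison and 14 passed in none.

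**Figure D2:**
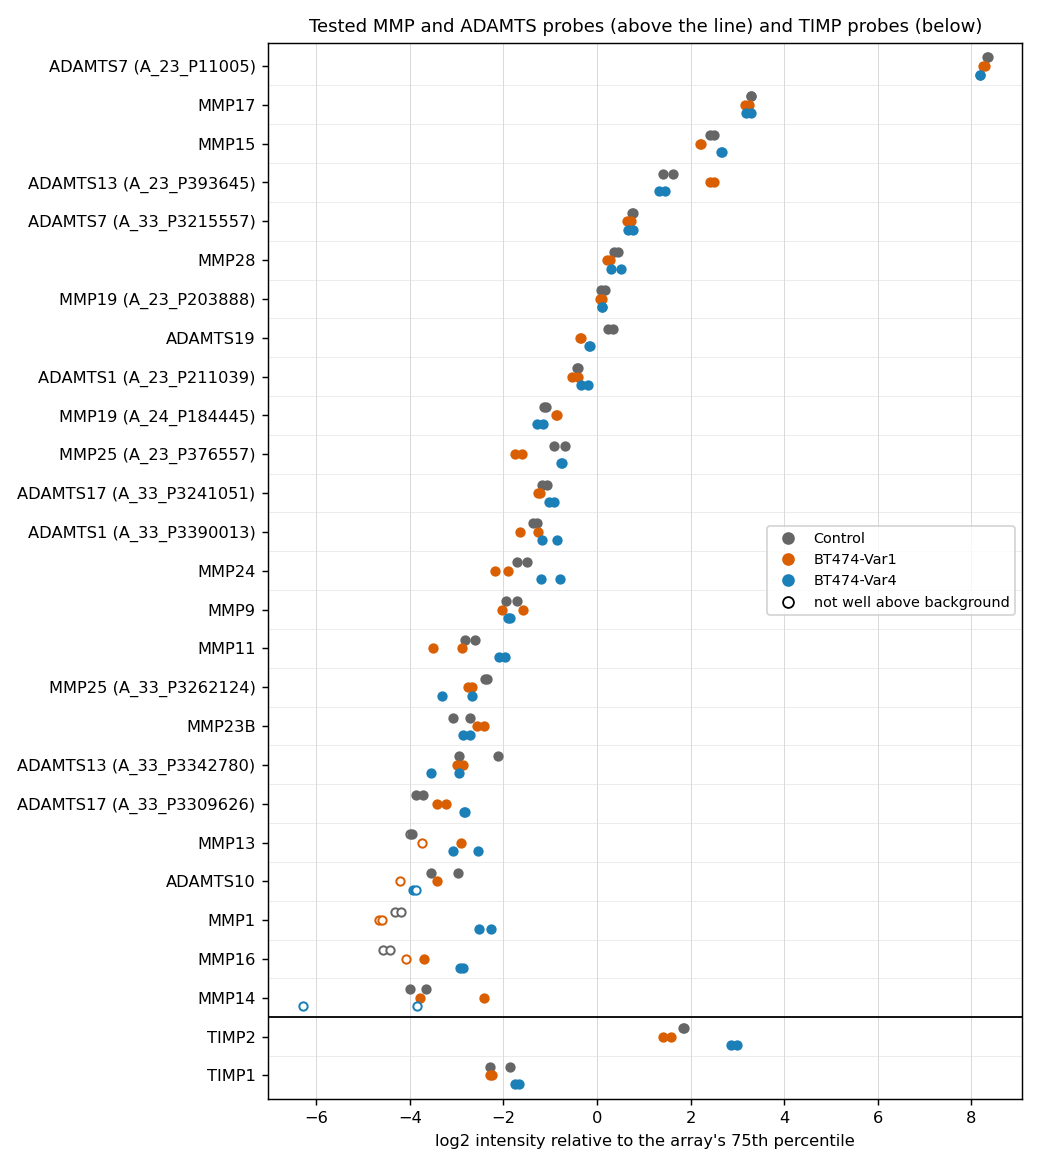
Level of each tested probe on the 6 arrays (horizontal axis, log2 intensity relative to the array's 75th percentile), with Control in gray, BT474-Var1 in orange and BT474-Var4 in blue, open circles not well above background, proteases above the line and TIMPs below it. TIMP2 in BT474-Var4 cells lay at 2.87 and 3.0, above the other 4 arrays, and MMP1 was above background on the BT474-Var4 arrays alone.

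TIMP2, a broad MMP inhibitor that also takes part in the activation of pro-MMP2, rose in BT474-Var4 cells. Its level was 1.84 and 1.87 in Control, 1.58 and 1.41 in BT474-Var1 and 2.87 and 3.0 in BT474-Var4. The 3 groups did not overlap, BT474-Var4 being the highest and BT474-Var1 the lowest. TIMP2 in BT474-Var4 exceeded Control 2.12-fold (95% CI 0.85 to 1.32 on the log2 scale, adjusted p = 0.00542, limma). Against BT474-Var1 it was 2.72-fold higher (log2 1.44, SE 0.0876, adjusted p = 0.00166). BT474-Var1 lay below Control by a smaller step, a log2 difference of -0.36 (SE 0.0876, adjusted p = 0.0386), which did not pass in 11 of 15 alternative settings, among them leaving out any 1 of the 6 arrays. The higher level in BT474-Var4 passed under all 15.

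TIMP1, a secreted inhibitor that is also known to promote cell growth, had a lower level than the 75th percentile on every array. It was -1.86 and -2.29 in Control, -2.29 and -2.23 in BT474-Var1 and -1.75 and -1.67 in BT474-Var4. BT474-Var4 was above both other groups, which overlapped each other. Only the difference between the variants passed, at log2 0.56 (SE 0.154, adjusted p = 0.0457), and it did not pass in 8 of 15 settings, among them leaving out any of the 4 arrays compared. Against Control, the difference of BT474-Var4 had a 95% CI of -0.04 to 0.78 on the log2 scale and did not pass. TIMP3, which binds to the matrix and also inhibits ADAMTS enzymes, ranged from -5.40 to -4.25, and TIMP4 from -6.79 to -5.89, all below background.

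Collagenases start the breakdown of fibrillar collagen. MMP1, interstitial collagenase, was at -4.32 and -4.19 in Control, -4.67 and -4.60 in BT474-Var1 and -2.26 and -2.52 in BT474-Var4. The probe was not well above background on the Control and BT474-Var1 arrays, so those levels set only a limit. With the dimmest measurable signal of an array in place of a lower value there, MMP1 in BT474-Var4 exceeded Control at least 3.56-fold (adjusted p = 0.00335) and BT474-Var1 at least 3.11-fold (adjusted p = 0.00127). The Control B value lay above that array's dimmest measurable signal and was used as read, though not marked, so the limit to Control rests in part on it. These p-values are from limma on the values as read, including those below background.

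The array carries 10 spots of the MMP1 probe, which were split in the same way. All spots used were above background in BT474-Var4, 10 of 10 on array A and 9 of 9 on array B. In Control 3 and 4 of 10 spots were, and in BT474-Var1 0 and 3 of 10. The spots of BT474-Var4 had intensities of 16.5 to 25.9 on the linear scale and those of the other arrays 1.28 to 9.86, so that the ranges did not overlap. These are dim signals: under a background correction that adds an offset of 50 (normexp), the MMP1 difference to Control shrank to 0.30 on the log2 scale and still passed, with an adjusted p no higher than 0.0372 over 14 settings.

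MMP13, collagenase 3, was at -4.0 and -3.95 in Control, -3.73 and -2.90 in BT474-Var1 and -3.08 and -2.55 in BT474-Var4. BT474-Var4 lay above Control and overlapped BT474-Var1. The difference to Control was 1.16 on the log2 scale and did not pass (adjusted p = 0.0679, limma), though it passed with only the 2 groups compared (adjusted p = 0.0448). MMP8 was below background throughout.

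MMP1 and MMP13 lie in a cluster of 9 MMP genes on chromosome 11q22, whose probes span 419.8 kb of hg19. In the order of their positions these are MMP7, MMP20, MMP27, MMP8, MMP10, MMP1, MMP3, MMP12 and MMP13. The MMP1 probe is at chr11:102660697-102660756 on the minus strand and the MMP13 probe at chr11:102813773-102813832. On both BT474-Var4 arrays MMP1 and MMP13 were the only cluster genes above background. MMP3, the neighbor of MMP1 at chr11:102706694-102706753, ranged from -6.73 to -5.84 with no measurable array. MMP10 and MMP12, stromelysin 2 and the macrophage elastase, were marked on the Control B array only.

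**Figure D3:**
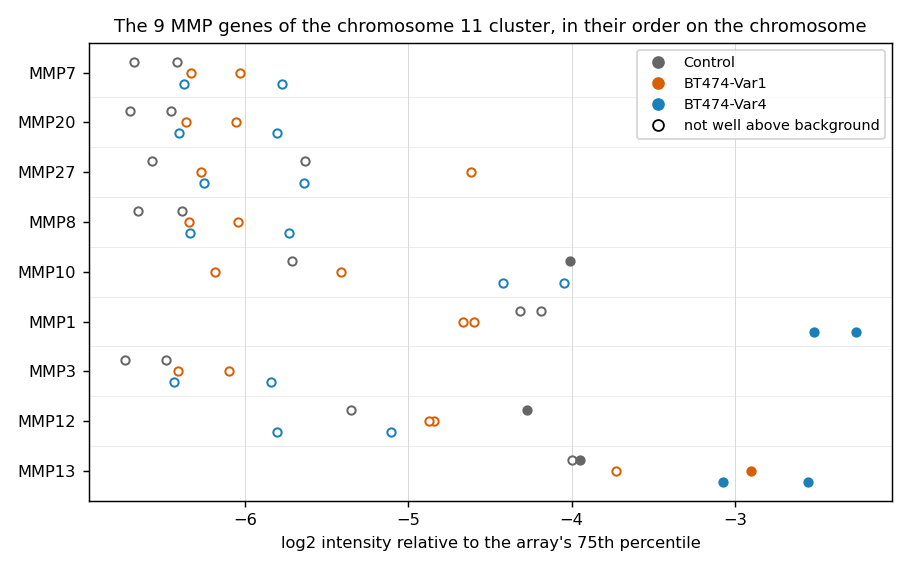
Levels of the 9 MMP genes of the chromosome 11 cluster on the 6 arrays (horizontal axis, log2 intensity relative to the array's 75th percentile; vertical axis, genes in their order on the chromosome, not to scale), with open circles not well above background. The BT474-Var4 points of MMP1 lie at -2.26 and -2.52, while MMP3 beside it is below background on all 6 arrays.

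Membrane-type MMPs act at the cell surface. Between the variants 4 of their 7 probes passed (57.1%), against 41.2% of all tested probes. MMP16 (MT3-MMP), an activator of pro-MMP2, was at -4.57 and -4.42 in Control, -4.09 and -3.70 in BT474-Var1 and -2.92 and -2.86 in BT474-Var4. The probe was above background on both BT474-Var4 arrays, on BT474-Var1 B and on neither Control array. MMP16 in BT474-Var4 thus exceeded Control at least 2.72-fold (adjusted p = 0.0066, limma). The Control B value was not marked but lay above that array's dimmest measurable signal, and it was used as read. This limit therefore rests in part on a value not well above background. It was also higher than in BT474-Var1, by 1.00 on the log2 scale (SE 0.148, adjusted p = 0.00927), which did not pass under normexp. BT474-Var1 A was not above background, and with its value raised to the dimmest measurable signal of that array the difference was 0.89, or 1.85-fold, below the 2-fold limit. The step from Control to BT474-Var1 was 0.60 on the log2 scale (adjusted p = 0.0388, limma). It rested on values below background, BT474-Var1 A among them, so no lower limit is given. This step did not pass in 11 of 14 settings, among them leaving out any array but BT474-Var1 A.

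MMP24 (MT5-MMP), known mostly from the nervous system, was at -1.71 and -1.49 in Control, -2.18 and -1.90 in BT474-Var1 and -0.80 and -1.20 in BT474-Var4. The groups did not overlap. BT474-Var4 exceeded BT474-Var1 in MMP24 by 2.06-fold (log2 1.04, SE 0.184, adjusted p = 0.0144), which did not pass in 3 of 15 settings, among them without BT474-Var1 A. Its differences to Control did not pass, with 95% CIs of -0.93 to 0.04 for BT474-Var1 and 0.11 to 1.08 for BT474-Var4.

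MMP25 (MT6-MMP), a lipid-anchored enzyme known from leukocytes, was lower in BT474-Var1. One of its probes, at chr16:3110418-3110477, was at -0.92 and -0.69 in Control, -1.61 and -1.75 in BT474-Var1 and -0.76 and -0.75 in BT474-Var4. BT474-Var1 was below both other groups, by 0.88 on the log2 scale against Control (SE 0.102, adjusted p = 0.00697) and 1.90-fold below BT474-Var4 (adjusted p = 0.00478). Both differences were under 2-fold and passed in all 15 settings. The other MMP25 probe, at chr16:3100486-3100545, did not pass and was lowest on the BT474-Var4 A array, so the probes disagree. The latter passed as lower in BT474-Var4 than in each other group without BT474-Var4 B. It also passed as lower in BT474-Var1 than in Control with only the 2 groups compared.

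MMP15 (MT2-MMP), a transmembrane enzyme of epithelia, had tight replicates at 2.42 and 2.49 in Control, 2.19 and 2.23 in BT474-Var1 and 2.66 and 2.67 in BT474-Var4. The groups did not overlap, yet the steps were small. BT474-Var4 was 1.37-fold above BT474-Var1 (adjusted p = 0.00583), which passed in all 15 settings. BT474-Var1 was 1.19-fold below Control (adjusted p = 0.0298), which did not pass in 10 of 15 settings, among them leaving out any 1 of the 6 arrays.

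MMP17 (MT4-MMP) was close to constant, between 3.17 and 3.30 on all arrays, and its BT474-Var4 to Control interval was -0.22 to 0.13 on the log2 scale. MMP14 (MT1-MMP), the main cell-surface activator of pro-MMP2, was above background on the Control and BT474-Var1 arrays and on neither BT474-Var4 array. It was at -3.65 and -4.0 in Control, -2.42 and -3.78 in BT474-Var1 and -6.29 and -3.84 in BT474-Var4. The replicates of both variants lay far apart, and no difference passed (log2 difference of BT474-Var4 to BT474-Var1 -1.96, 95% CI -4.46 to 0.53). Without BT474-Var4 B that difference was -3.19 and passed (adjusted p = 0.0468).

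MMP11 (stromelysin 3), which furin activates inside the cell and which is best known from tumor stroma, was the one called among the remaining MMPs. It was at -2.60 and -2.82 in Control, -3.50 and -2.89 in BT474-Var1 and -2.09 and -1.97 in BT474-Var4, without overlap. BT474-Var4 exceeded BT474-Var1 by 2.24-fold (log2 1.17, SE 0.226, adjusted p = 0.0181). It did not pass in 4 of 15 settings, among them without either BT474-Var4 array, with an adjusted p of at most 0.0802. The differences of MMP11 to Control did not pass, but BT474-Var4 passed as higher with only the 2 groups compared (adjusted p = 0.0377, limma). BT474-Var1 passed as lower without BT474-Var1 B (log2 difference -0.79).

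MMP9, gelatinase B, was at -1.71 and -1.94 in Control, -2.03 and -1.57 in BT474-Var1 and -1.91 and -1.87 in BT474-Var4. Every group overlapped the others, with an interval of -0.53 to 0.40 for BT474-Var4 and -0.45 to 0.49 for BT474-Var1 against Control on the log2 scale. MMP23B, MMP28 (epilysin) and 1 of 2 MMP19 probes did not pass either. MMP23B lay between -3.08 and -2.42 and MMP28 between 0.22 and 0.51, and the interval of BT474-Var4 against Control was -0.29 to 0.50 for MMP23B and -0.24 to 0.24 for MMP28. That MMP19 probe ranged from 0.06 to 0.17. The second MMP19 probe was 1.27-fold lower in BT474-Var4 than in BT474-Var1 (adjusted p = 0.0174), which did not pass in 4 of 15 settings, among them without BT474-Var1 A, BT474-Var1 B or BT474-Var4 A. It passed as higher in BT474-Var1 than in Control with only the 2 groups compared (adjusted p = 0.0474, limma). MMP21, which is known for its role in left-right patterning, was above background on 1 array of each group and was not tested.

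ADAMTS13, which cuts von Willebrand factor, was the ADAMTS gene with a call of 2-fold or more. Its probe at chr9:136324399-136324458 was at 1.61 and 1.41 in Control, 2.41 and 2.49 in BT474-Var1 and 1.46 and 1.32 in BT474-Var4. BT474-Var1 was above both other groups, which overlapped each other. BT474-Var1 exceeded Control 1.92-fold by this probe (log2 0.94, SE 0.0977, adjusted p = 0.00584) and BT474-Var4 2.08-fold (adjusted p = 0.00329). Both passed in all 15 settings. A second probe, at chr9:136291405-136291464, ranged from -3.55 to -2.11 and passed in no comparison, its lowest and highest arrays being BT474-Var4 A and Control A.

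ADAMTS19, an ADAMTS member with few known substrates, fell in both variants. It was at 0.23 and 0.33 in Control, -0.34 and -0.36 in BT474-Var1 and -0.15 and -0.17 in BT474-Var4. For BT474-Var1 the log2 difference to Control was -0.64 (SE 0.0578, adjusted p = 0.00492), and for BT474-Var4 it was -0.44 (SE 0.0578, adjusted p = 0.0128). The 2 comparisons share the Control arrays. The first passed in all 15 settings, the second did not pass in 5, among them leaving out any of its 4 arrays.

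ADAMTS17, known for its role in connective tissue and short stature, rose in BT474-Var4 by its probe at chr15:100603864-100603923. That probe was at -3.72 and -3.86 in Control, -3.24 and -3.41 in BT474-Var1 and -2.83 and -2.84 in BT474-Var4, without overlap. It was 1.94-fold above Control in BT474-Var4 (adjusted p = 0.00654) and 1.38-fold in BT474-Var1 (adjusted p = 0.0204), the latter not passing in 7 of 15 settings, among them without Control A, Control B or BT474-Var1 A. Between the variants it was 1.41-fold higher in BT474-Var4 (adjusted p = 0.0148), not passing in 6 settings, among them without BT474-Var1 B or either BT474-Var4 array. The other tested ADAMTS17 probe was 1.20-fold above BT474-Var1 in BT474-Var4 (adjusted p = 0.0347), not passing in 11 settings, among them leaving out any 1 of the 6 arrays, and did not pass against Control.

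ADAMTS7, which cuts cartilage oligomeric matrix protein, had 4 probes that differed in detection. One stayed between 8.18 and 8.36 on all arrays, another between 0.64 and 0.78, the next was marked on 1 array and the last on none. Neither of the tested ones passed. The probes disagree on the level of ADAMTS7, and which of them reports its RNA was not tested. ADAMTS1, a proteoglycan-cleaving enzyme with anti-angiogenic activity, had 2 probes that did not pass, one between -0.54 and -0.19 and the other between -1.65 and -0.86, and ADAMTS10 passed in no comparison and was above background on 4 arrays. Genes with near-identical copies, such as MMP23B, can share signal with the copy on these arrays.

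Counted by side, 3 of the 25 tested protease probes were higher and 3 lower in BT474-Var1 than in Control, and 1 of the 2 TIMP probes was lower. Over all tested probes, 14.1% passed as higher and 20.3% as lower in that comparison. No member was called at 2-fold or more, where 10 of 27 (37%) had an unadjusted p under 0.05 in limma against 46.4% of all tested probes, and 2.78% of all tested probes were called higher and 1.16% lower. Against Control, BT474-Var4 had 3 protease probes higher and 1 lower and 1 TIMP probe higher, against 9.87% and 14.3% of all probes. Called were MMP1, MMP16 and TIMP2, all higher, where the background was 1.6% higher and 1.57% lower. MMP1 and MMP16 were tested only because both BT474-Var4 arrays were above background, so the filter favored a higher value there. Their calls therefore cannot be read against that share. With a filter on all 6 arrays, 0 proteases were called in this comparison.

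In BT474-Var4 against BT474-Var1, 8 protease probes were higher and 2 lower, and both TIMP probes were higher, while 20.4% of all tested probes passed as higher and 20.8% as lower. MMP1, MMP11, MMP16, MMP24 and TIMP2 were called higher and ADAMTS13 lower, where 2.27% of all probes were called higher and 4.6% lower. MMP1 and MMP16 again entered the test through BT474-Var4 alone, so their calls cannot be read against these shares. In all, 44.4% of the tested members passed in this comparison, against 41.2% of all tested probes. The median log2 difference over the 27 tested members was 0.19, against -0.03 over all tested probes. It was -0.11 against -0.04 for BT474-Var1 against Control, and 0.05 against -0.08 for BT474-Var4 against Control.

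**Figure D4:**
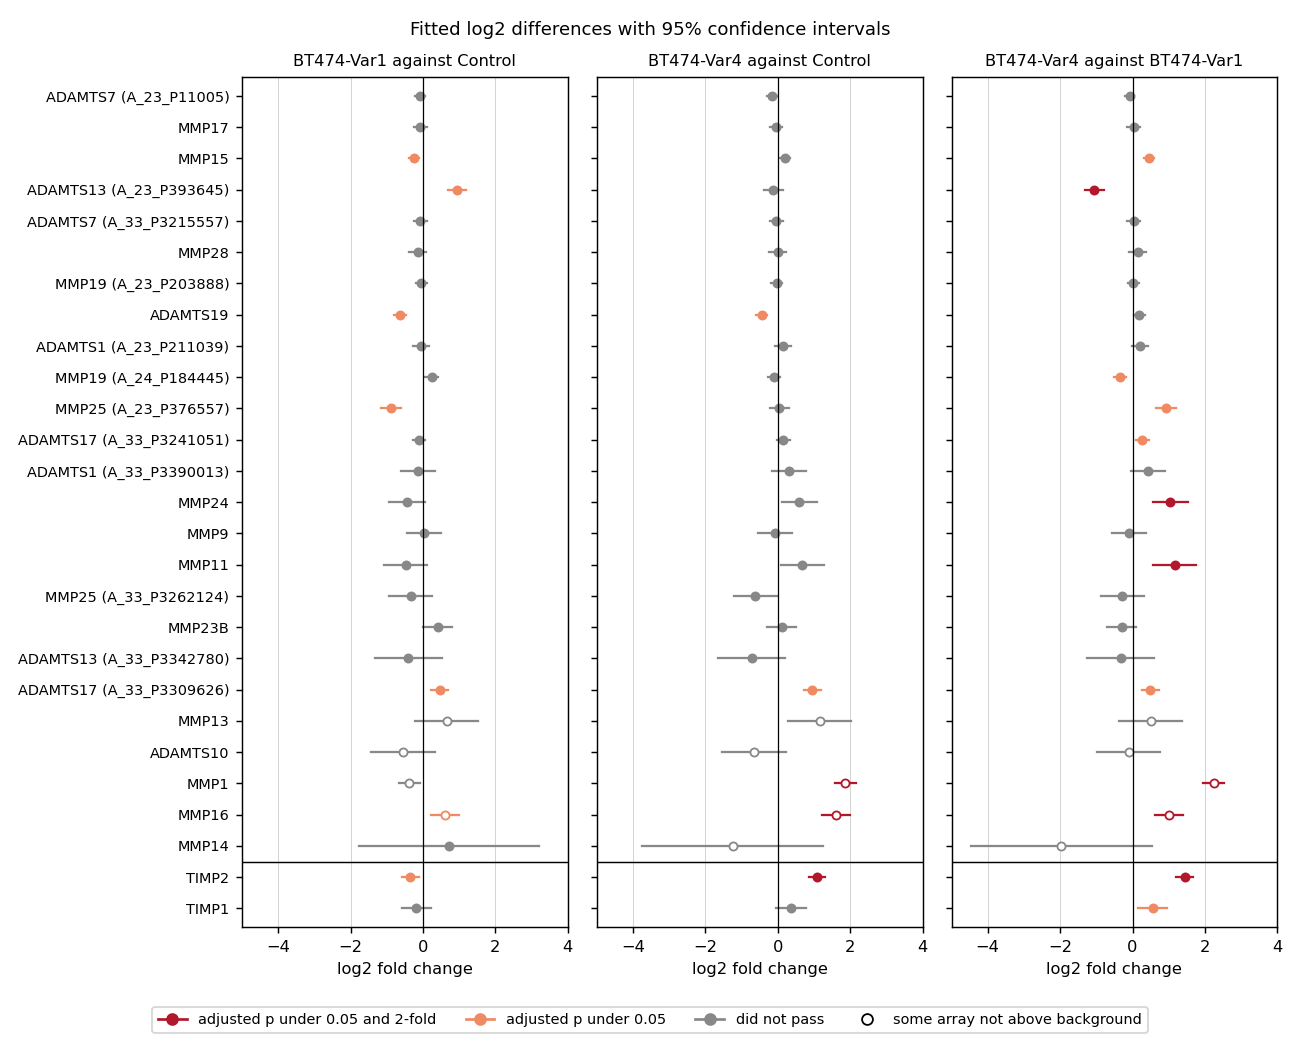
Fitted log2 fold change of each tested probe (horizontal axis) with its 95% confidence interval, in 3 comparisons, with dark red for an adjusted p under 0.05 and 2-fold or more, light red for an adjusted p under 0.05 and gray for neither, and open circles where an array was not well above background. In BT474-Var4 against BT474-Var1, 5 members were called higher and 1 lower, and MMP14 has the widest interval.

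Of the called genes, RefSeq promoter sequences are shown for ADAMTS13, MMP11 and MMP24, each called between the variants alone. No promoter sequence was at hand for MMP1 and TIMP2, and MMP16, the remaining called gene, was left out of the display. The 250 bases before each RefSeq start on GRCh38.p14 are printed 5′ to 3′ in the direction of the gene, with capitals for the GC box GGGCGG or its reverse complement CCGCCC. They lie at chr9:133422117-133422366, chr22:23772599-23772848 and chr20:35226440-35226689, all on the plus strand.
ADAMTS13: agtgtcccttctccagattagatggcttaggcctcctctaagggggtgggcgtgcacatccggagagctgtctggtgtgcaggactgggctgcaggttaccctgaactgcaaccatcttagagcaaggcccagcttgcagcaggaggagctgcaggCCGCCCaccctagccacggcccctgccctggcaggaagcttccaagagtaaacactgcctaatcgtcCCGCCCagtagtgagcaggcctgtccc
MMP11: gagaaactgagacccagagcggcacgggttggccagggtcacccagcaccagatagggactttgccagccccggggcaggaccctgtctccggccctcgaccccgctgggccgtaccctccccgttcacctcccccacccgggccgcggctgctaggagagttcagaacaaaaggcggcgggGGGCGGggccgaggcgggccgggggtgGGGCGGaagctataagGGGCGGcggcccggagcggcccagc
MMP24: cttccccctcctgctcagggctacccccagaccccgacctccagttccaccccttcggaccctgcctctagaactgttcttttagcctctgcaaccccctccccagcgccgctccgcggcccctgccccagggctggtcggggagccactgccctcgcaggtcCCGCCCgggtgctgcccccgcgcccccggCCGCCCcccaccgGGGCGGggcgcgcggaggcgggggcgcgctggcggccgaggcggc

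The ADAMTS13 window held 2 GC boxes, the MMP11 window 3 and the MMP24 window 3. Between the variants ADAMTS13 was the one lower in BT474-Var4 and the other genes were higher. GC boxes were common, in 42.3% of 27305 promoters of this length and in 19 of the 27 members with a sequence (70.4%). The AP-1 motif TGANTCA, where N is any base, was in 6.6% of all promoters and in 4 of the 27 members (14.8%), which were ADAMTS12, MMP10, MMP20 and MMP7. None of these was called, since none was tested. MMP1 and TIMP2 were not among the 27 members searched, so these counts say nothing of their promoters. The TATA motif TATAAA was in 11.1% of all promoters and in 7 of the 27 members (25.9%). Both strands were searched, and a match is a description of letters only.

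MMPs work beside the plasminogen system, which can activate them, and beside other surface proteases. Of 46 genes of such systems, 36 were tested. In BT474-Var4 against Control 8 passed as higher and 5 as lower, in BT474-Var1 against Control 4 and 11, and between the variants 11 and 7. Of all tested probes 24.2%, 34.4% and 41.2% passed in these comparisons, with the shares higher and lower as given above. PLAU, urokinase, was at -1.57 and -1.72 in Control, -1.02 and -1.08 in BT474-Var1 and 0.28 and 0.17 in BT474-Var4. It stood apart in every group, 1.87 above Control on the log2 scale in BT474-Var4 (SE 0.0787, adjusted p = 0.00262) and 0.59 above it in BT474-Var1 (adjusted p = 0.00896).

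PLAT, the tissue plasminogen activator, was at -2.17 and -2.04 in Control, -3.18 and -2.77 in BT474-Var1 and -0.33 and -0.36 in BT474-Var4. It was higher than Control in BT474-Var4, by 1.76 on the log2 scale (SE 0.15, adjusted p = 0.00577), and lower in BT474-Var1, with a difference of -0.87 (adjusted p = 0.016). SERPINE2, an inhibitor of both activators, was lower in BT474-Var1, at -3.13 and -2.90 against -1.39 and -1.48 in Control (log2 difference -1.58, adjusted p = 0.00413). In BT474-Var4 SERPINE2 was at -1.40 and -1.17 and did not pass against Control (adjusted p = 0.421). PLAU, PLAT and SERPINE2 were the 3 tested genes among 7 of the plasminogen activators, their receptor and inhibitors, and between the variants all 3 were called higher in BT474-Var4.

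TFPI2, a Kunitz-type inhibitor of plasmin, was lower in both variants. It was at -0.28 and -0.23 in Control, -1.73 and -1.15 in BT474-Var1 and -1.90 and -2.09 in BT474-Var4, with log2 differences to Control of -1.18 (adjusted p = 0.0171) and -1.74 (adjusted p = 0.0109). ADAMTSL3, an ADAMTS-like matrix protein without protease activity, was also lower in both, with log2 differences of -1.19 (adjusted p = 0.00494) and -1.78 (adjusted p = 0.00368). One BT474-Var4 array was not above background for it. These comparisons share the Control arrays.

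PCSK5, a proprotein convertase, was 1.11 above Control on the log2 scale in BT474-Var4 (adjusted p = 0.0102). TMPRSS2, a transmembrane serine protease of epithelia, was 1.05 above Control (adjusted p = 0.00515) and 1.60 above BT474-Var1 (adjusted p = 0.00133). Among the membrane ADAM proteases, ADAM19 was lower in BT474-Var1 than in Control, with a log2 difference of -1.03 (adjusted p = 0.00764). ADAM8 was lower in BT474-Var4 than in BT474-Var1, with a log2 difference of -1.44 (adjusted p = 0.00127).

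**Figure D5:**
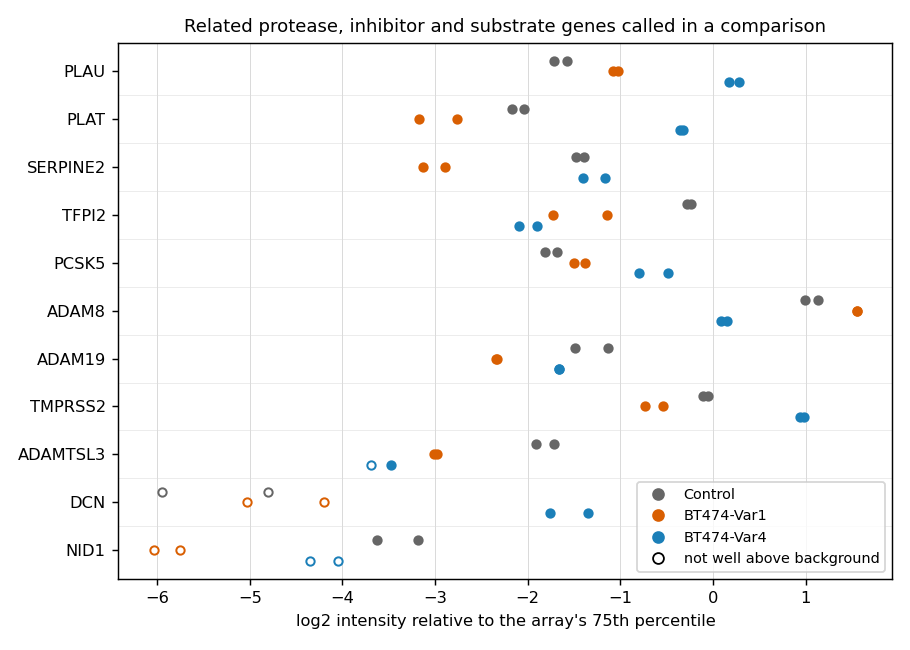
Levels of the 11 related genes called in at least 1 comparison on the 6 arrays (horizontal axis, log2 intensity relative to the array's 75th percentile), with open circles not well above background. PLAU lies at 0.28 and 0.17 and PLAT at -0.33 and -0.36 in BT474-Var4, above all other arrays, and DCN is above background on the BT474-Var4 arrays alone.

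Of 14 known substrates, such as proteoglycans and basement membrane proteins, 10 were tested. DCN, the collagen-binding proteoglycan decorin, was at -5.95 and -4.80 in Control, -4.20 and -5.03 in BT474-Var1 and -1.35 and -1.76 in BT474-Var4. It was above background on the BT474-Var4 arrays only and at least 7.11-fold higher there than in Control (adjusted p = 0.0125). NID1, nidogen of basement membranes, was above background on the Control arrays only, at -3.19 and -3.63, and at least 1.53-fold lower in BT474-Var1. Its adjusted p of 0.00449 (limma) is for the fitted log2 difference of -2.49, which used values below background. The limit is under 2-fold, so the call rests on those values.

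MMP1, MMP11 and DCN are also expressed by fibroblasts, so fibroblast markers are given beside them. Of 9 such markers, COL1A2, COL3A1, PDGFRA, LUM and THY1 were below background on all 6 arrays. COL1A1 and PDGFRB were above it on all arrays, DCN on the BT474-Var4 arrays and FAP on the BT474-Var1 arrays. The log2 of their summed level was 1.67 and 1.70 in Control, 1.99 and 1.93 in BT474-Var1 and 2.53 and 2.49 in BT474-Var4. That sum adds intensities of different probes, is mostly COL1A1 and includes DCN, so it does not describe the markers as a set. COL1A1 was 1.04 above Control on the log2 scale in BT474-Var4 (adjusted p = 0.00293), and PDGFRB did not pass. The part of these markers in the MMP values was not tested.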

How the data were processed

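RNA of Control, BT474-Var1 and BT474-Var4 cells (2 one-color Agilent arrays each) was labeled with Cy3. The authors extracted spot intensities with Agilent Feature Extraction 11.5.1.1, which subtracts background, and the deposited intensity of each spot is linear and not normalized between arrays. They also deposited a table of log2 values, shifted to each array's 75th percentile, used here as an alternative, in which each column matched its own array to a median absolute difference of 0.00716 or less. Probe coordinates are hg19 per the file headers. Here, log2 processed intensities were used after subtracting, per array, their 75th percentile over non-control probes, outlier spots (63 to 128 per array) were left out, and spots of a probe were averaged. No spot was saturated. limma 3.58.1 in R 4.3.3 fitted 1 mean per group to all 6 arrays over the 31858 probes that some group had well above background on both of its arrays, with 3 residual and 1.53 prior degrees of freedom, and p-values were adjusted over all of them by the Benjamini-Hochberg method. Intervals cover 95%. Some groups were not above background on any array while the other group was on both. Lower values were then set to the dimmest measurable signal of the same array, and the fold is given as "at least". A value above that signal was used as read even where the probe was not marked on that array. The p-value beside such a fold is for the fitted difference, which uses the values below background as read. Whether probe positions are exonic or in a UTR was not annotated here. For array data the number of arrays limits the precision.

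Every TIMP, every protease that passed in a comparison or was above background on all arrays, and every related gene called were named with values, other members by name, counts and ranges. For related genes the tested probe with the highest mean was used. Of the called ones, PLAU, PCSK5, ADAM8, ADAM19, ADAMTSL3 and DCN have further probes on the array, whose values are not given here. The members and lists were chosen with earlier results of these data known. Of the 59 member accessions, 56 matched a RefSeq symbol, in each case the array's gene name. Promoters are from RefSeq on GRCh38.p14, found for 27 of the 46 genes. The fit was tested on simulated data. Tried as alternatives were a normexp correction of the background (offset 50), quantile normalization, testing all probes or those measurable on all 6 arrays, the deposited table, a replicate block, a trended and robust fit, fits of 2 groups alone, the one-way analysis of variance of the methods, and leaving out each array. For a comparison, leaving out an array of the third group gave the same result as the fit of 2 groups alone. The counts of settings therefore hold this alternative more than once.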

Additional observations from a re-analysis of the deposited data

How the results depend on the processing

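The 24 passed differences of single probes were refitted under up to 15 settings, and none reversed. They all passed again with the deposited table, and with a filter on all 6 arrays the 19 that could be tested did, while without a filter on dim probes 12 of 24 did not pass. The called probes moved as follows. In BT474-Var1 against Control, 1 protease was called with quantile normalization, and 0 to 1 when single arrays were left out, the 1 without Control A. In BT474-Var4 against Control, 0 proteases were called after normexp, which compresses dim signals by its offset, and 0 with a filter on all 6 arrays, which removes MMP1 and MMP16, and 0 inhibitors were called after normexp. Between the variants, 5 proteases were called in the main analysis, 0 after normexp, 3 without a filter, 3 with a filter on all 6 arrays, 3 with the methods' one-way analysis of variance, and 2 to 5 when single arrays were left out, with 2 without BT474-Var1 A and 3 without either BT474-Var4 array. The letters A and B did not pair the arrays (correlations of deviations -0.0153 to 0.0451). With the letter as a replicate block, 0, 2 and 5 proteases were called in the 3 comparisons, as without it, and 21 of 24 single differences passed, with TIMP1 between the variants and TIMP2 and MMP15 in BT474-Var1 against Control lost. Another 18 differences that had not passed did so under some alternative, 9 of them when an array was left out. In BT474-Var4 against Control, MMP13 and MMP11 each did in a trended and robust fit (adjusted p = 0.013 and 0.0342) and in the fit of 2 groups alone. Leaving out either BT474-Var1 array gave the same result as the fit of 2 groups alone and adds no further alternative. MMP14 between the variants did after normexp (adjusted p = 0.0159) and without BT474-Var4 B (adjusted p = 0.0468). MMP1 in BT474-Var1 against Control, below background in both, did with quantile normalization (adjusted p = 0.0111) and in the fit of 2 groups alone (adjusted p = 0.0394). Where the alternative does not itself show it, the cause was not tested. The signal over background limits the dim members, 32 of 59 of which could not be tested, and 2 arrays per group limit the rest.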
